A study of Mus musculus with 5 samples.

Results

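Binding of KLF5 at the genes of the collagen family was described from 1 anti-V5 chromatin immunoprecipitation sequencing (ChIP-seq) library of mouse embryonic stem (ES) cells. The members are the protein-coding genes of the RefSeq GRCm38.p6 table whose symbol is Col, digits, a, digits. There are 44 of them among 21887 protein-coding genes on assembled chromosomes. Each member was taken by its symbol, although the family itself was picked with earlier results of these data known. For comparison they were divided by the type of assembly their chains form into 11 fibrillar collagens, 6 type IV (basement membrane) collagens and 27 others. A gene was counted as having a peak where the summit of a V5-KLF5 peak lay inside the gene or within 10 kb of either end.

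The cells are labelled as wild type ES cells derived from C57B6/J mice that overexpress V5-KLF5, the Krüppel-like zinc-finger factor KLF5 with a V5 epitope tag. Their controls were a normal mouse IgG immunoprecipitate and input DNA of the same cells. A further control was the same anti-V5 precipitation, with its input, from untagged cells labelled as wild type ES-D3, an established ES cell line. Each of the 5 libraries was the only library of its group. The level of the tagged protein was not measured, and the sources used here do not give the promoter that drove it. RNA was not among the data used here, so neither the expression of the collagen genes nor the labelled cell type was checked.

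Collagens are extracellular matrix proteins built from chains that wind around each other in a triple helix. Fibrillar collagens assemble into the fibrils of skin, bone and cartilage, and type IV collagens form the sheet-like network of basement membranes, including those laid down early in the embryo. The other collagens coat fibrils, form microfibrils or short networks, or span the plasma membrane. KLF5 belongs to a family of factors known for binding GC-rich and CACCC-type DNA letters.

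Promoter sequences are shown for 6 collagen genes that differ in whether a summit lay in the promoter. They are the 250 bases before the RefSeq start site, 5′ to 3′ on the strand of the gene, from RefSeq with GRCm38.p6 coordinates. Capitals mark matches to CCNCNCCC or CACCC on either strand, and matches to these letters can overlap. Col5a3 (chr9:20815068-20815317, minus strand), Col13a1 (chr10:61979109-61979358, minus strand) and Col5a1 (chr2:27886175-27886424, plus strand) had a summit in this window and 5, 5 and 7 matches to CCNCNCCC. Col16a1 (chr4:130047590-130047839, plus strand) had a summit but no CCNCNCCC match. Col1a2 (chr6:4505368-4505617, plus strand) and Col3a1 (chr1:45311288-45311537, plus strand) had no summit in the window, with 1 and 0 such matches. These 6 genes were picked as examples, so the contrast in their match numbers does not stand for the family. The promoter windows counted below run past the start site. There CCNCNCCC occurred in 14 of 15 collagen windows with a summit and in 15 of 23 without. The shares over protein-coding windows were 80.8% and 47.9%. A window without a summit can still lie inside a called peak, as those of Col4a1 and Col4a4 did. Match numbers overlapped between windows with and without a summit. Without a summit, a Col6a2 window held 15 and the Col8a2 window 6. That Col6a2 window overlaps another Col6a2 window that held a summit, and the called peak reaches into it. With a summit, the Col9a2 and Col27a1 windows held 1 and 2.
Col5a3: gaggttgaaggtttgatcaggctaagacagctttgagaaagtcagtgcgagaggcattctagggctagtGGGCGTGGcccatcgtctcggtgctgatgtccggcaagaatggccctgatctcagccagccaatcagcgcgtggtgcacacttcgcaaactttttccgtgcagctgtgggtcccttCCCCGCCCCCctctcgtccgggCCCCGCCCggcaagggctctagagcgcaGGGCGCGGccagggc
Col13a1: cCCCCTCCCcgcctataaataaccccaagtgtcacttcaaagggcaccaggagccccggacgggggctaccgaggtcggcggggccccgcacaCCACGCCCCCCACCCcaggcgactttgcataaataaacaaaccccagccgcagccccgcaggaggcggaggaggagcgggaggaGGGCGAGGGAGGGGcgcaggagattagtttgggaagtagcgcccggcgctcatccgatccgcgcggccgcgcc
Col5a1: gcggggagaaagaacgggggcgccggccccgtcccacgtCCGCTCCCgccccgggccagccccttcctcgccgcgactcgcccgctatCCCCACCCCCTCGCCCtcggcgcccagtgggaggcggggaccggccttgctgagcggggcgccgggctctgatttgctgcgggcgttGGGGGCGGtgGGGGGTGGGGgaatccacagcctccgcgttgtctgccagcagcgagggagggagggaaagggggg
Col16a1: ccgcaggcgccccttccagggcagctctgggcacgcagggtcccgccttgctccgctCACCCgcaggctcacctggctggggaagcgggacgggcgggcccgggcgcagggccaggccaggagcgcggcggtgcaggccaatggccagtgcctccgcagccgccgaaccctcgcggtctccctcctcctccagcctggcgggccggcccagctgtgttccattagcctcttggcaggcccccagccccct
Col1a2: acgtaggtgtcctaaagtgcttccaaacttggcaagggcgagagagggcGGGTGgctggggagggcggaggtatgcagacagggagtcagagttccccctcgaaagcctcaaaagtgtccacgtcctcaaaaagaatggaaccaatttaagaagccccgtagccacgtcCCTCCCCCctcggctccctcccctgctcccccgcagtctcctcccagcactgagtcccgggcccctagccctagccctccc
Col3a1: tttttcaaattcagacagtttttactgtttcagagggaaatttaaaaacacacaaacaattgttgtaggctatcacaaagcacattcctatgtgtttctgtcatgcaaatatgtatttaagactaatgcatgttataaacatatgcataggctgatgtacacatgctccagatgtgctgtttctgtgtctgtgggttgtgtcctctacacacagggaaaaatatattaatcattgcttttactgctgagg

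Of the 44 collagen genes, 34 had a V5-KLF5 peak (77.3%, exact 95% interval 62.2 to 88.5), where 70.5% of all protein-coding genes did. The interval covers counting error only and contains the share of all genes. Without peaks on the genome-wide background floor the order turned, to 56.8% of collagen genes against 58.3%. A peak with a fold enrichment over input of at least 10 was found at 10 collagen genes (22.7%, interval 11.5 to 37.8), against 22.2% of all protein-coding genes. The strongest peak per gene had a median fold enrichment of 7.42 over the 34 genes with a peak, with a range of 3.17 to 17.2, and of 7.71 over all protein-coding genes with a peak. In frequency and in strength the family lay close to the average coding gene when length was not considered. The IgG list held 3 peaks in all, with 0 at a collagen gene, and the list of the untagged cells held none, so the control lists say nothing particular about collagen genes.

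The 34 genes shared 109 different peaks, which made 112 pairs of a gene and a peak because 3 peaks lay in the windows of neighbouring type IV genes. Their median fold enrichment was 5.86 and their median summit pileup 25 extended tags, against 5.18 and 24 over all peaks of assembled chromosomes. Of the 109 peaks, 15 reached a fold enrichment of 10 (13.8%), against 13.0% of all peaks. The input background under them reached at most 6.13, which is the 95th percentile over all peaks, and 3 peaks stood at that value (within 0.001). The genome-wide background floor of 3.10 lay under 49 of the 109 (45.0%) and under 37.2% of all peaks.

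**Figure D1:**
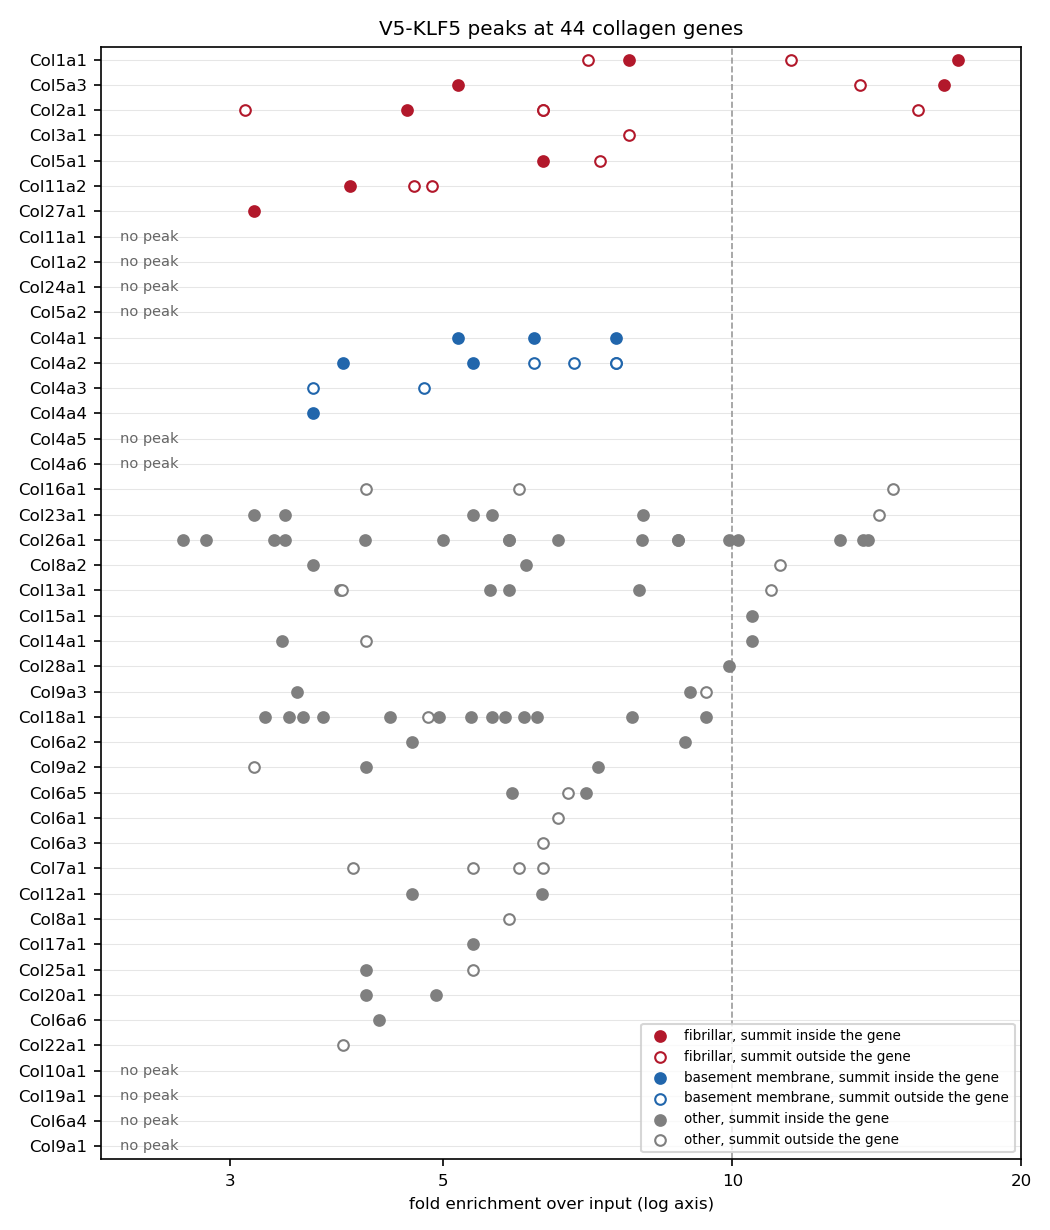
Every V5-KLF5 peak at the 44 collagen genes. Each row is a gene, the x axis is the fold enrichment of the peak over input on a log axis, and colours mark the 3 classes. Filled points are summits inside the gene and open points lie within 10 kb outside it, and the dashed line stands at 10. A few points of equal fold cover each other (2 peaks of Col4a2 at 7.57, for example). Strong peaks appear in the fibrillar and other classes, type IV genes stay below 8, and 10 genes have no peak.

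The 11 fibrillar genes ran from the strongest peak of the family to no peak at all. Peaks were present at 7 (63.6%, interval 30.8 to 89.1), with 19 peaks in all and a median strongest fold enrichment of 7.81. Col1a1, which encodes the main chain of type I collagen of bone and skin (chromosome 11, 94936224 to 94953042), had 4 peaks with fold enrichments of 7.08, 7.81, 17.2 and 11.5. The strongest, at 94952231 to 94952960, lay inside the gene with its summit 534 bp from the right end and a pileup of 82. The peak with 11.5 lay 5582 bp outside the gene and nearer to Sgca. Col1a2, the partner chain of type I collagen (chromosome 6, 4505618 to 4541543), had no peak, and the nearest summit was 109499 bp away.

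Chains of types V and XI also differed in their peaks. Col5a3 (chromosome 9, 20770050 to 20815117) had 3 peaks, of which the strongest (20812461 to 20813388) lay 1917 bp downstream of the start site with a fold enrichment of 16.6 and a pileup of 92. A second, with 13.6, had its summit 72 bp upstream of the start site, in the promoter printed above. Col5a1 had peaks with 7.27, 230 bp upstream of its start site, and with 6.35 near the far end of the gene. Col5a2 had none, its nearest summit lying 16102 bp outside. Col11a2, a chain of cartilage collagen, had a weak peak with 3.99 at 21 bp downstream of its start site, besides peaks with 4.87 and 4.65 that lay in Slc39a7 and Rxrb. Col11a1 had no peak, and its nearest summit was 375940 bp away.

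Col2a1, which encodes the main collagen of cartilage (chromosome 15, 97975602 to 98004724), had 5 peaks, among which that at 97973231 to 97973849 reached 15.6 at 2123 bp outside the left end. The other 4 were between 3.10 and 6.35, and 1 of them had its summit 32 bp outside the right end. The only peak counted for Col3a1, a collagen of skin and vessels, lay 8523 bp beyond its 3′ end with 7.81. Col27a1 had a single peak of 3.17 at 14 bp downstream of its start site, the lowest strongest peak of the 34 genes. Col24a1, the remaining fibrillar gene without a peak, had its nearest summit 24158 bp away.

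Type IV genes come in neighbouring pairs with adjoining start regions, and in the pairs on chromosomes 8 and 1 the same peak was counted for both genes. Peaks were counted at 4 of the 6 genes (66.7%, interval 22.3 to 95.7), and 0 of the 6 reached a fold enrichment of 10. That count allows a share of up to 45.9% (upper exact bound), which includes the 22.2% of all protein-coding genes. Col4a1 (chromosome 8, 11198423 to 11312889) and Col4a2 (11312805 to 11449287), the chains of nearly all basement membranes, shared the peak at 11312278 to 11313179, whose fold enrichment was 6.21 and a pileup of 29. Its summit lay 197 bp downstream of the Col4a1 start site and 176 bp upstream of that of Col4a2. They also shared a peak of 7.57 inside Col4a1, 3371 bp upstream of the Col4a2 start site. Inside Col4a1 alone lay a peak with 5.17. Inside Col4a2 lay peaks with 7.57, 5.37 and 3.93, and a peak with 6.83 lay beyond its 3′ end in Rab20. Signal at this pair was thus of middling strength and spread over both genes.

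Col4a3 and Col4a4, the chains of the mature kidney and lung basement membrane on chromosome 1, shared the peak at 82586525 to 82587138, whose fold enrichment was 3.66 and a pileup of 14. Its summit lay 269 bp outside Col4a3 and 197 bp downstream of the Col4a4 start site. It was the only peak of Col4a4. The other peak counted for Col4a3, with 4.78, lay in the neighbouring gene Mff, 280 bp from an end of it. Col4a5 and Col4a6, the pair on chromosome X, had no peak, and the nearest summits lay 538898 and 500669 bp away. Peaks were sparse on chromosome X, where 35.0% of 966 protein-coding genes had a peak. Without X-linked genes all 4 type IV genes had a peak, as did 34 of 42 collagen genes (81.0%) and 73.0% of protein-coding genes on autosomes.

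Of the 27 other collagens, 23 had a peak (85.2%, interval 66.3 to 95.8), with a median strongest fold enrichment of 7.24. The intervals of the 3 classes overlap each other and each contains 70.5%, so the shares of fibrillar, type IV and other collagen genes could not be told apart at these numbers. Median strongest fold enrichments were 7.81, 6.17 and 7.24, and 3, 0 and 7 genes reached a fold enrichment of 10.

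All 4 transmembrane collagens had a peak (interval 39.8 to 100, against 70.5% of protein-coding genes). Col13a1 (chromosome 10, 61838234 to 61979206), which is found at neuromuscular junctions, had 6, with the strongest at 61978764 to 61979461, 121 bp upstream of the start site, at 11.0. Col23a1 also had 6, from 3.17 to 14.2. Its strongest lay 654 bp beyond the 3′ end and only 75 bp from an end of Phykpl, and the peak at its own start site had 5.61. Col25a1, expressed in neurons, had a peak with 4.15 at 155 bp upstream of its start site and another with 5.37 beyond its 3′ end. Col17a1, the hemidesmosome collagen of epithelia, had a single peak with 5.37 inside the gene, 36790 bp from the start site.

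Both multiplexins, collagens of the basement membrane zone, had peaks (interval 15.8 to 100, against 70.5% of protein-coding genes). Col15a1 had a single peak of 10.5 (chromosome 4, 47207871 to 47208537), 63 bp downstream of the start site. Col18a1, whose end fragment is endostatin, had 14 peaks, all below 10. Its RefSeq entries give 2 start sites, and summits lay 5 bp downstream of the outer and 125 bp upstream of the inner one, with 6.07 and 5.61. The strongest, with 9.39, was 18156 bp from the 3′ end. Col7a1, the anchoring fibril collagen of skin, had 4 peaks, none inside the gene. The peak 394 bp upstream of its start site had 4.03, and the other 3, with 5.37 to 6.35, lay nearer to an end of Uqcrc1 or Pfkfb4.

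Fibril-associated collagens, which coat fibrils, had peaks at 7 of 9 genes (interval 40.0 to 97.2, against 70.5% of protein-coding genes). Col16a1 (chromosome 4, 130047817 to 130099277) had the strongest peak of the class at 130101973 to 130103113, 3198 bp beyond its 3′ end, with a fold enrichment of 14.7 and a pileup of 104. At its start site, 56 bp upstream, a peak had 4.15. Col14a1 had peaks with 4.15 and 3.39 towards its left end and with 10.5 deep inside the gene, 35503 bp from the nearer end. The type IX chains, which decorate cartilage fibrils, differed among themselves. Col9a3 had peaks with 9.03 at 129 bp inside its left end and with 9.39 at a site 14 bp from Ogfr, Col9a2 had 3 peaks up to 7.24, and Col9a1 had none. Col12a1, Col20a1 and Col22a1 had strongest peaks with 6.34, 4.91 and 3.93, and Col19a1 had no peak.

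The type VI genes, whose chains form beaded microfibrils, had peaks at 5 of 6 (interval 35.9 to 99.6, against 70.5% of protein-coding genes). None reached 10, a count that allows a share of up to 45.9%, against 22.2% of protein-coding genes. Col6a2 led with 8.93 at 31 bp upstream of a start site (pileup 49). Its neighbour Col6a1 had a single peak with 6.59 at 2492 bp upstream of the start site. Col6a3 had a peak with 6.35 at 9078 bp upstream. In the Col6a4, Col6a5 and Col6a6 cluster on chromosome 9, the strongest peaks of Col6a5 and Col6a6 had 7.03 and 4.29 and Col6a4 had none. Of the short-chain network collagens, Col8a1, found in corneal and vessel matrix, had 1 peak with 5.86 at 9 bp upstream of its start site. The strongest peak counted for Col8a2, with 11.2, lay inside Adprhl2, and Col10a1, the collagen of hypertrophic cartilage, had none. Col28a1 had 1 peak with 9.93 inside the gene.

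Col26a1 (chromosome 5, 136741759 to 136883376) carried more peaks than any other collagen gene. All 17 summits lay inside its 142 kb, between 9019 and 63387 bp from the nearer end, and none lay within 1 kb of an end. Fold enrichments ran from 2.68 to 13.9, and 4 peaks reached 10 (136753062 to 136753915 with 13.9, 136870225 to 136870801 with 13.7, 136850001 to 136850692 with 12.9 and 136772960 to 136773486 with 10.1). No other gene end was nearer to any of them. Over the genome, 57 protein-coding genes (0.260%) had at least 17 peaks and 130 (0.594%) had at least the 14 of Col18a1. Among those of 100 to 200 kb, the length range of both genes, the shares were 1.04% and 2.71%. In all, 6 collagen genes had 5 or more peaks (13.6%), against 14.3% of protein-coding genes. Those were Col26a1, Col18a1, Col4a2, Col13a1, Col23a1 and Col2a1.

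**Figure D2:**
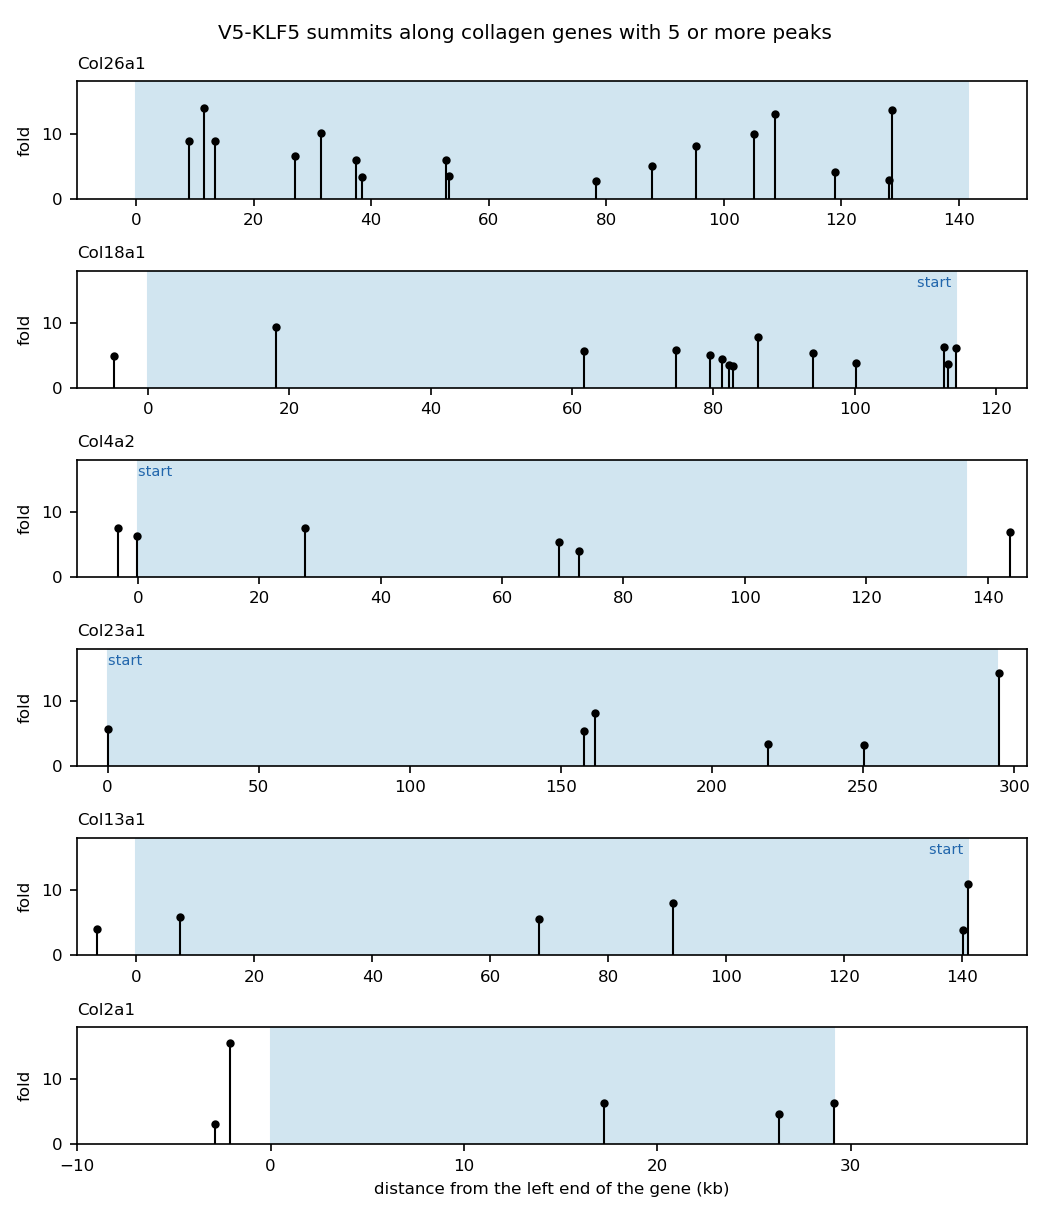
Summits along the 6 collagen genes with 5 or more peaks. The x axis is the distance from the left end of the gene in kb, stems give the fold enrichment of each peak over input, shading marks the gene, and "start" marks the end that holds the start site where RefSeq promoter entries give it. Col26a1 has 17 summits, all inside the gene, while Col13a1, Col23a1 and Col2a1 have their strongest summits outside the gene near an end.

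Collagen genes are long, and a longer gene offers a wider window for a peak. Their median length was 114 kb, against 17.2 kb over all protein-coding genes. Pooled over their windows they had 1.77 peaks per 100 kb (counting interval 1.46 to 2.13), where all protein-coding genes had 3.27. That interval covers counting error only, not the spread between genes. Density falls with length, so genes of like length are the nearer comparison. The median density was 5.54 in collagen genes of up to 20 kb against 3.70 in all protein-coding genes of that length, and 4.61 against 3.49 from 20 to 50 kb. It was 1.03 against 2.55 from 50 to 100 kb, 0.976 against 1.66 from 100 to 200 kb, and 0.133 against 0.837 above 200 kb. On autosomes the values above 200 kb were 0.361 against 0.870. From the shortest to the longest bin the collagen medians rest on only 4, 11, 3, 18 and 8 genes, X-linked genes included. Without Col26a1 and Col18a1, left out after their counts were seen, the pooled density was 1.34. By class the pooled density was 1.50 in fibrillar, 1.03 in type IV and 2.08 in other collagens, and 1.98 in the 4 autosomal type IV genes.

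Set beside genes of like length, the share with a peak was above the coding average among short collagen genes and below it among the longest. Of those above 20 and up to 50 kb, 10 of 11 had a peak (90.9%), against 78.5% of all protein-coding genes of that length. From 50 to 100 kb the count was 2 of 3, against 85.7%. From 100 to 200 kb the count was 15 of 18 (83.3%), against 87.2%, with a median of 1.5 peaks against 3. Above 200 kb it was 4 of 8 (50.0%), against 88.9%, and on autosomes 4 of 6 against 90.6%. These counts are small and were not tested. Of the 26 collagen genes above 100 kb, 7 had no peak: Col11a1, Col24a1, Col5a2, Col19a1, Col6a4 and the X-linked Col4a5 and Col4a6.

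**Figure D3:**
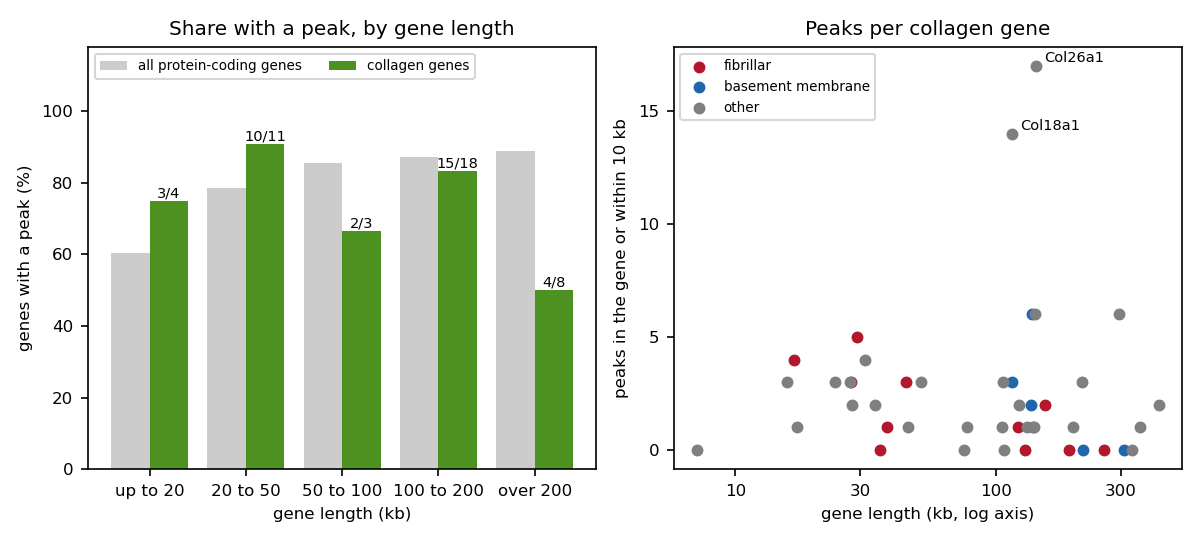
Gene length and V5-KLF5 peaks. Left, bars give the share of genes with a peak in percent by gene length, grey for all protein-coding genes and green for collagen genes with their counts; right, each point is a collagen gene with its length on a log axis and its number of peaks. The grey bars rise with length from 60.3% to 88.9%, the green bars do not, and Col26a1 and Col18a1 stand above the other genes with 17 and 14 peaks.

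The 10 genes without a peak were Col1a2, Col5a2, Col11a1, Col24a1, Col4a5, Col4a6, Col6a4, Col9a1, Col10a1 and Col19a1. Nearest to the 10 kb limit from outside was Col5a2 at 16102 bp, followed by Col10a1 at 21574, Col6a4 at 22085 and Col24a1 at 24158 bp. Those 4 were the genes gained within 50 kb, where 38 of 44 collagen genes had a summit (all protein-coding genes 81.1%). Just inside the limit, Col6a3 rested on a summit 9048 bp outside the gene, Col3a1 on 8523 bp and Col22a1 on 7760 bp.

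Strand and start sites were given by RefSeq promoter entries for 35 of the 44 genes. A summit lay within 1 kb of a start site at 19 of them (54.3%), against 51.7% of protein-coding genes with an entry, and within 1 kb of the 3′ end at 3 (8.57%), against 7.79%. Inside the 300-base promoter window itself, from 250 bases before to 50 after the start, 14 of 35 genes had a summit (40.0%), against 29.7%. This difference was not tested. Collagen windows had a median GC content of 59.8%, against 56.3% in the windows of protein-coding genes, and its part was not tested either. A peak of at least 10 within 1 kb of a start site was found at Col5a3, Col13a1 and Col15a1. These were 3 of 21 such pairs of a gene and a peak (14.3%), against 14.8% over all protein-coding genes.

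**Figure D4:**
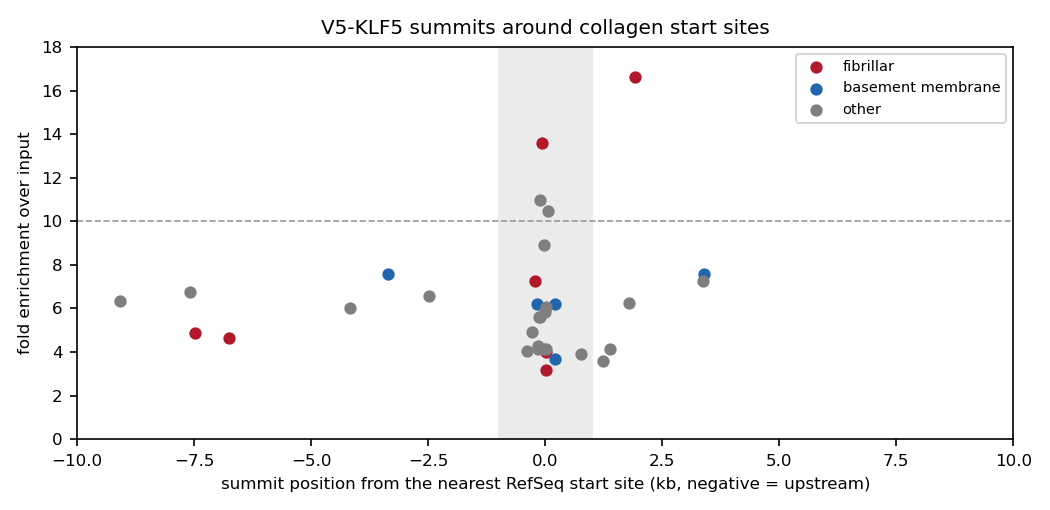
Summits within 10 kb of a RefSeq start site of the collagen genes with a promoter entry. The x axis is the position of the summit in kb, negative upstream, the y axis its fold enrichment over input, and the grey band marks 1 kb on either side. Points gather in the band, mostly between 3 and 9, with Col5a3 at 13.6 above the rest of the band.

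Of the 112 pairs of a gene and a peak, 76 had the summit inside the gene (67.9%), against 53.0% over all protein-coding genes. Without Col26a1 and Col18a1, which had nearly all their summits inside, it was 46 of 81 (56.8%). Of the pairs with a known strand, 21 of 75 lay within 1 kb of a start site (28.0%, against 28.5%). Among the 36 pairs outside the gene, the summit was nearer to an end of another protein-coding gene in 14. Strong examples were the 14.2 of Col23a1 beside Phykpl, the 11.2 of Col8a2 in Adprhl2 and the 11.5 of Col1a1 towards Sgca. If a peak counted only for the gene it lay in or the nearest gene, 33 collagen genes had a peak and 8 had 1 of at least 10. The shares of all protein-coding genes under that rule were not computed, nor was their share of outside pairs nearer to another gene. These counts therefore do not set collagen genes apart.

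The letters CCNCNCCC (either strand) occurred in 29 of 38 collagen promoter windows (76.3%), against 56.6% of the windows of protein-coding genes and 49.5% of all 32851 windows of the same length. CACCC occurred in 29 (76.3%), against 59.5% and 57.5%. Of the 15 collagen windows with a summit, 14 held CCNCNCCC (93.3%), the exception being Col16a1, and of the 23 without a summit 15 did (65.2%). Some of those 23, such as the Col4a1 and Col4a4 windows, lie inside a called peak whose summit falls outside the window. Over all protein-coding windows the shares were 80.8% with a summit and 47.9% without. GC content moved with this: its median was 63.3% in collagen windows with a summit and 56.3% in those without, and its part in the motif counts was not tested.

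Peaks were also counted at 58 genes that process, anchor, bind or degrade collagen. The list was drawn up by function, but with earlier results of these data known. Of these, 50 had a peak (86.2%, interval 74.6 to 93.9, against 70.5% of protein-coding genes), and 17 had 1 of at least 10 (29.3%, against 22.2%). The median strongest fold enrichment was 7.86, against 7.71 over all protein-coding genes with a peak. Length was not matched in these comparisons, and the listed genes run from 6.25 to 210 kb. The share of all protein-coding genes with a peak rises with length. It was 60.3% up to 20 kb, 78.5% from 20 to 50 kb and 85.7% from 50 to 100 kb. All 7 genes of basement membrane partners had a peak (interval 59.0 to 100) and 5 reached 10, where 22.2% of protein-coding genes did. They were led by Hspg2 (perlecan) at 18.1 and Nid2 (nidogen) at 17.8. These 7 genes are 60.5 to 126 kb long, against a median of 17.2 kb over all protein-coding genes. Their windows are thus wider, and the share reaching 10 at like length was not computed. Of 18 chaperones and modifying enzymes 17 had a peak (interval 72.7 to 99.9, against 70.5% of protein-coding genes of any length). The neighbours P3h4 and Fkbp10 shared their strongest peak (5.65), so not all genes in this count, or in the 50 of 58, are independent. The intervals do not allow for that. The lysyl hydroxylase gene Plod1 led at 30.1, at a summit 67 bp from Mfn2, and P4ha3 had no peak. The prolyl hydroxylation cofactor gene Crtap followed at 15.3, at a summit 3622 bp outside the gene.

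For the roles that follow, each exact interval contains the 70.5% of protein-coding genes with a peak. Propeptide processing genes had peaks at 7 of 8 (interval 47.3 to 99.7), and Tll1 had none. The procollagen C-proteinase enhancer genes led, Pcolce2 at 20.5 and Pcolce at 12.9, the latter nearer to Fbxo24. In the lysyl oxidase family, which cross-links fibrils, 3 of 5 had a peak (interval 14.7 to 94.7), with none at Lox or Loxl2. Loxl1 had 20.3 at a summit 8247 bp outside the gene, and Loxl3 had 15.9 at a summit 66 bp from Dok1. All 5 secretion genes had a peak (interval 47.8 to 100), led by the COPII coat gene Sec23a at 8.28 and Klhl12 at 7.59, the latter 56 bp from Rabif. Among collagen receptors 8 of 9 had a peak (interval 51.8 to 99.7), with none at Gp6. They were led by the integrin beta 1 gene Itgb1 at 22.3 and the receptor kinase gene Ddr1 at 11.5. Proteases of collagen turnover had peaks at 3 of 6 (interval 11.8 to 88.2), with none at Mmp8, Mmp13 or Ctsk. Mmp9 had 11.8 and Mmp2 had 10.7, at summits 2143 and 5947 bp outside the genes.

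The V5-KLF5 library kept 23.2 M (mega) tags after duplicates were removed, the IgG library 24.5 M and the V5 library of untagged cells 21.8 M. They gave 45378, 3 and 0 peaks. With 1 library in each group, no value above has a replicate check, and a gene without a called peak may hold signal below the calling threshold. The run name in the header of the untagged list names another ES line than the label, which was followed.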

How the data were processed

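Peak lists of 3 immunoprecipitates were used. Per the file headers, the authors called peaks with MACS2 2.1.0.20140616 on single libraries against the input of the same cells, with tags extended to 250 bp, 1 tag per position and a q-value cutoff of 0.05. The submitters' processing notes name mm10 and Bowtie 0.12.8. For each peak the authors deposited the pileup signal at the summit and a p-value and a q-value, both as −log10. They also deposited the fold enrichment: 1 was added to pileup and input background alike before the ratio was taken. The background was recomputed from those values.

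Genes came from the RefSeq table of GRCm38.p6, the assembly mm10 names. It has no exons, so exonic and intronic summits were not separated. Strand and start sites came from the RefSeq promoter table, with entries for 35 of 44 members. Peaks of assembled chromosomes (45366 of 45378) were joined to genes with pandas 2.3.3, and the join was tested on simulated data. Shares carry exact Clopper-Pearson intervals (scipy 1.17.1), a density an exact Poisson interval. With 1 library per group no test between groups was made.

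The members, classes and lists were chosen with earlier results of these data known. Every member is described. Values are given for those with a strongest fold enrichment of at least 10, the 3 strongest of each class, pairs that share a peak and genes with 0 peaks. Of the 58 processing and receptor genes the 2 strongest of each role and those with 0 peaks are named. All 58 symbols matched, 1 of them (Ctage5) as Mia2. Alternatives varied the window, the peak threshold, the assignment of peaks and the classes.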

Additional observations from a re-analysis of the deposited data

How the results depend on the processing

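The number of collagen genes with a peak ran from 25 to 38 over 9 alternatives, the fibrillar count from 5 to 9 and the count of other collagens from 17 to 25, each within 1.5 times its reported value. The lowest came without peaks on the background floor, where 56.8% of collagen genes had a peak against 58.3% of all protein-coding genes, so the order of 77.3% against 70.5% turned. Of the other settings with both shares, gene body plus 50 kb gave 86.4% against 81.1% and gene body plus 1 kb gave 68.2% against 62.9%. The median strongest fold enrichment ran from 6.74 to 9.16, inside its interval of 6.34 to 9.93. The type IV count of 4 became 2 of 6 at a −log10 q of at least 10 (33.3%, against 61.4% of collagen genes and 54.6% of protein-coding genes). It became 8 of 10 when Col7a1, Col15a1, Col17a1 and Col18a1 joined the class, which follows from the added genes. The count of 10 genes with a fold enrichment of at least 10 became 17 within 50 kb, where the windows are wider, and 6 without peaks on the background floor, where fewer peaks remain. The shares of all protein-coding genes reaching 10 at these 2 settings were not computed, so the shift cannot be set against theirs. Peaks per 100 kb fell from 1.77 to 1.34 without Col26a1 and Col18a1, and the share of pairs with the summit inside the gene from 67.9% to 56.8%, an alternative chosen after seeing the data. No paired analysis was possible because each group has 1 library and the result comes from no test. A peak below the calling threshold cannot be seen, and input coverage under the floor of 3.10 is hidden, so fold enrichments there may be understated.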
